A study of Mus musculus with 12 samples.

Results

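The integrated stress response is represented here by 10 genes: the 4 kinases of translation initiation factor eIF2alpha (Eif2ak1, Eif2ak2, Eif2ak3 and Eif2ak4), the transcription factors Atf4, Atf5 and Ddit3, and the feedback targets Trib3, Chac1 and Ppp1r15a. They were selected by symbol, as the rows of the deposited count table whose Ensembl identifier carries one of these names in GENCODE M21, and all 10 were found among the 26921 rows of the table. The study sequenced left ventricular RNA of mice aged 16 weeks, 6 libraries per genotype. WT mice carried Gch1 flox/flox alleles without Cre, and cmGch1 KO mice carried Gch1 flox/flox together with one copy of α-MHC-Cre, a Cre recombinase driven by a promoter of cardiomyocytes. Gch1 encodes GTP cyclohydrolase, the rate-limiting enzyme of tetrahydrobiopterin synthesis. The alleles were therefore recombined in cardiomyocytes, while other cells of the ventricle kept their floxed Gch1. Libraries of mice with Cre and intact Gch1 were not analysed here, so the deletion and the presence of Cre cannot be told apart. The question addressed is whether the RNAs of this stress pathway differed between cmGch1 KO and WT hearts.

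Each eIF2alpha kinase is activated by a different stress: HRI, encoded by Eif2ak1, by haem shortage and by signals from damaged mitochondria, PKR (Eif2ak2) by double-stranded RNA, PERK (Eif2ak3) by unfolded proteins in the endoplasmic reticulum, and GCN2 (Eif2ak4) by uncharged tRNA. Phosphorylated eIF2alpha slows the recycling of eIF2 and lowers general protein synthesis, while upstream open reading frames allow ATF4, ATF5 and CHOP (Ddit3) to be translated more. Much of the control of this pathway is therefore on phosphorylation and translation, which counts of RNA do not measure. ATF4 drives genes of amino acid synthesis, amino acid transport and tRNA charging, and the products of Trib3 and Ppp1r15a limit the response.

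The members lie on 7 chromosomes of GRCm38. The kinase genes lie at chr5:143817788-143904251 (Eif2ak1, plus strand), chr17:78852564-78882573 (Eif2ak2, minus strand), chr6:70844515-70905245 (Eif2ak3, plus strand) and chr2:118388618-118475234 (Eif2ak4, plus strand). The transcription factor genes lie at chr15:80255184-80257541 (Atf4, plus strand), chr7:44812256-44816658 (Atf5, minus strand) and chr10:127290774-127296288 (Ddit3, plus strand). The feedback genes lie at chr2:152337422-152344032 (Trib3, minus strand), chr2:119351229-119354381 (Chac1, plus strand) and chr7:45522916-45526268 (Ppp1r15a, minus strand).

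Short stretches of sequence are shown for members where a search of the 300 bases around each annotated start matched any motif searched. The motifs were a composite element for C/EBP and ATF proteins, the cyclic AMP response element and the interferon-stimulated response element. A match is of letters alone, and binding was not measured. The sequences are from RefSeq on GRCm38.p6, are written 5′ to 3′ on the strand of the gene, and have the motif in capitals. All 10 members matched the RefSeq table, with 12 windows. The first motif searched was the core TGATGNAA of the composite element for C/EBP and ATF proteins, on both strands. It was present in 3.969% of the 32851 windows of all genes and in 2 of the 12 windows of the members, in Chac1 at chr2:119351019-119351086 and in Trib3 at chr2:152344029-152344056. In both genes the match was on the reverse strand and is shown as its complement. The match in Chac1 lies before the RefSeq start, whereas that in Trib3 begins at base 15 after it. By the gene coordinates given above, Trib3 starts at base 152344032 on the minus strand. Its match, at chr2:152344039-152344046, lies before that start.
Chac1: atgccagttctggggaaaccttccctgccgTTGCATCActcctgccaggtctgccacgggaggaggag
Trib3: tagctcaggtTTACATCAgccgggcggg
The second was the cyclic AMP response element TGACGTCA, which reads the same on both strands. It was present in 1.79% of all windows and in 1 of the 12 windows of the members, just before the start of Ppp1r15a at chr7:45526269-45526310 on the minus strand.
Ppp1r15a: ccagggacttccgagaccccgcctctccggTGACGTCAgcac
The third was the core of the interferon-stimulated response element, GAAA and again GAAA after a gap of 2 bases, which was present on either strand in 3.443% of all windows and in 2 of the 12 windows of the members. One match lay farther upstream in Ppp1r15a, and the other lay in Eif2ak2, a gene known to be induced by interferon, at chr17:78882535-78882564 on the minus strand. The match in Eif2ak2 begins at base 19 after the RefSeq start.
Eif2ak2: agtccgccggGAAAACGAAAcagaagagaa
Atf5 has 2 windows because RefSeq lists 2 starts, and none of the motifs matched in either window. The 60 bases before each start are shown because Atf5 was the member that differed between genotypes and its counts, made per gene, do not tell the starts apart. They lie at chr7:44816659-44816718 for the upstream start and chr7:44815659-44815718 for the downstream start, both on the minus strand.
Atf5, upstream start: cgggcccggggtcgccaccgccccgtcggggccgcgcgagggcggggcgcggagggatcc
Atf5, downstream start: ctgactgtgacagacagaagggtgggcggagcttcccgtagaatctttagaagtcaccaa

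Totals lay between 19921398 and 37917806 counts per library and did not differ between genotypes beyond the spread (exact permutation test, two-sided, p = 0.212). At 3 counts, the most that a count of 0 allows, a gene would be at 0.0828 to 0.139 cpm (counts per 1000000 counts of the library, its total scaled by the TMM factor of edgeR), and every member had at least 57 counts in every library. This limit covers counting error alone, since the reads carry no molecular identifiers. Gch1 fell from 10.7 ± 0.974 cpm in WT to 5.48 ± 0.855 cpm in cmGch1 KO (SD, n = 6 each), with a log2 fold change of -0.96 and an adjusted p of 6.9e-04 by edgeR's quasi-likelihood test (0.00756 without cmGch1 KO replicates 2 and 3). Cardiomyocyte markers were abundant in every library: the 10 markers summed to between 71107 and 77211 cpm in WT and between 65031 and 67874 cpm in cmGch1 KO, with none at 0 and 0 of 10 called. cmGch1 KO replicates 2 and 3 stood apart from the other 10 libraries. They held 86.7 and 99.0 cpm of Xist, the RNA made by an inactivated X chromosome, and 0 counts of 4 Y-linked genes. Mitochondrial genes took 14.9% and 16.1% of their counts, against 18.3% to 22.9% in the other libraries. The labels give no sex, and all 6 WT libraries had Y-linked counts and little Xist. By these genes cmGch1 KO replicates 2 and 3 were female and the other 10 libraries male. The methods of the study state that both sexes were used and that mice were matched by sex. In these 2 libraries sex and genotype cannot be told apart, so calls of members and of the listed genes are given with and without them. Nothing in the labels says more than that the libraries are separate samples of a genotype, and p-values measure the spread between these samples.

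All 10 members passed the filter of more than 3 cpm in at least 6 libraries, with 11225 genes tested in all. Chac1 was over 3 cpm in 9 libraries, among them all 6 of cmGch1 KO, where it was higher. Trib3 was over 3 cpm in 8 libraries, and every other member in all 12. Atf5 rose in cmGch1 KO hearts, and the other 9 members had adjusted p-values between 0.326 and 0.985. Thus 1 of 10 members was called higher and 0 lower at an adjusted p (Benjamini-Hochberg over all tested genes) under 0.05, where 1.12% of all tested genes were called in either direction and 0.677% were called higher. At an unadjusted p under 0.05, 3 members were higher (Atf5, Chac1 and Eif2ak2) and 0 lower, against 787 higher and 506 lower among the 11225 tested genes. Of these members, Chac1 passed the filter through the cmGch1 KO libraries. With no filter its unadjusted p was 0.0253 by edgeR's quasi-likelihood test. The log2 fold change was above 0 for 9 of 10 members, against 46.7% of all tested genes, and its median was 0.13, against -0.01. In 0 of 10 members did every cmGch1 KO library lie above every WT library, a pattern found in 1.07% of the tested genes. All changes are in cpm of whole ventricle, in which fewer cells of a type and less RNA per cell cannot be told apart.

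**Figure D1:**
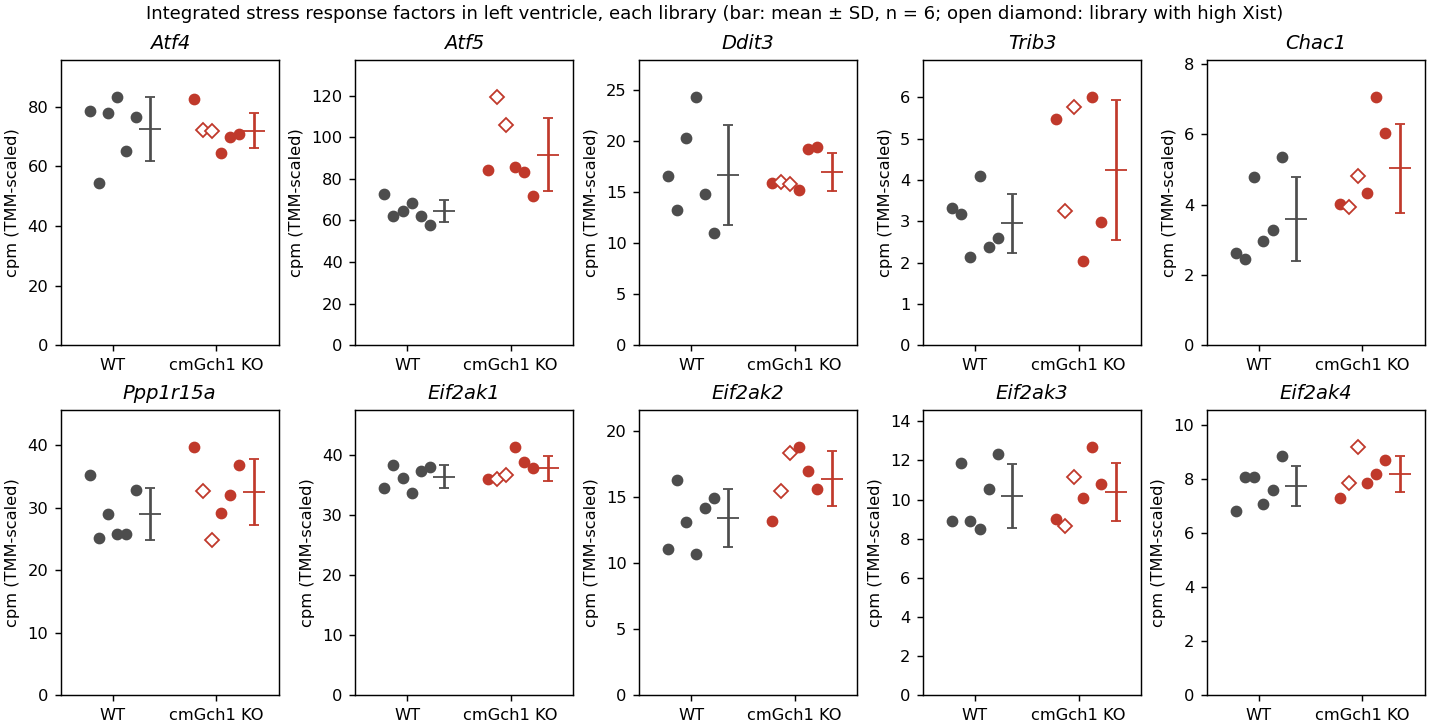
Level of each member in each library, in cpm scaled by the TMM factors (vertical axes, each from 0), for WT (grey) and cmGch1 KO (red), with the mean ± SD of 6 libraries beside the points and open diamonds for cmGch1 KO replicates 2 and 3, which have high Xist. Atf5 lies between 57.9 and 72.8 cpm in WT and between 71.6 and 119 cpm in cmGch1 KO, with its highest values in the open diamonds.

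The levels of the members were compared with each other per kilobase of exon. In WT hearts Atf5 (32.4 ± 2.62 cpm per kb, SD, n = 6) and Atf4 (30.8 ± 4.53 cpm per kb) were the most abundant and overlapped each other. Below them came Ppp1r15a (9.88 cpm per kb) and Ddit3 (9.75 cpm per kb), whose ranges also overlapped, and then Eif2ak1 (6.42 cpm per kb). The other 5 members, Eif2ak2, Chac1, Eif2ak3, Trib3 and Eif2ak4, followed in this order from 2.61 down to 1.04 cpm per kb, and each overlapped its neighbour. The ranges of Atf4 and Ppp1r15a, and those of Eif2ak1 and Eif2ak2, did not overlap. In cmGch1 KO hearts the order was the same except that Trib3 (1.999 cpm per kb) lay above Eif2ak3 (1.72 cpm per kb), with overlapping ranges. Atf5 (45.9 ± 8.75 cpm per kb) no longer overlapped Atf4 (30.5 ± 2.49 cpm per kb) in cmGch1 KO hearts.

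Among the kinases, the level of Eif2ak1 was between 33.7 and 38.4 cpm in WT (median 36.8) and between 36.02 and 41.4 cpm in cmGch1 KO (median 37.3). Its log2 fold change was 0.06 (SE 0.06, 95% interval -0.08 to 0.19). The ranges overlapped, with 2 of 6 cmGch1 KO libraries above every WT library. Eif2ak3 was between 8.50 and 12.3 cpm in WT (median 9.72) and between 8.65 and 12.7 cpm in cmGch1 KO (median 10.4), with a log2 fold change of 0.03 (SE 0.12, 95% interval -0.23 to 0.30). Eif2ak4 was between 6.82 and 8.86 cpm in WT (median 7.83) and between 7.32 and 9.20 cpm in cmGch1 KO (median 8.02), with a log2 fold change of 0.08 (SE 0.09, 95% interval -0.11 to 0.28). None of these 3 kinases differed beyond the spread between libraries, and the upper ends of the intervals correspond to 1.14-fold for Eif2ak1, 1.23-fold for Eif2ak3 and 1.21-fold for Eif2ak4.

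Eif2ak2, which encodes the kinase that senses double-stranded RNA, had the largest difference among the 4 kinases. It was between 10.6 and 16.3 cpm in WT (median 13.6) and between 13.1 and 18.8 cpm in cmGch1 KO (median 16.3). The ranges overlapped, with 3 of 6 cmGch1 KO libraries above every WT library and 5 of 6 above the WT median. The log2 fold change was 0.29 (SE 0.12, 95% interval 0.04 to 0.55), with an unadjusted p of 0.0256 and an adjusted p of 0.326 by edgeR's quasi-likelihood test. The exact permutation test gave p = 0.0411, two-sided, and 0.383 after adjustment over all tested genes. Eif2ak2 did not pass the threshold, except with 1 surrogate variable as a covariate, where its log2 fold change was 0.30 and its adjusted p 0.0403. Without cmGch1 KO replicates 2 and 3 its log2 fold change was 0.28. The quasi-likelihood test then gave an unadjusted p of 0.0701 and an adjusted p of 0.761, and the exact permutation test p = 0.105, two-sided. Of 25 other interferon-stimulated genes listed, 21 were tested, 18 had a log2 fold change above 0 and 0 were called in either direction, with a median of 0.15. Ifit2, which binds viral RNA, had the smallest p of them, with a log2 fold change of 0.40 and an adjusted p of 0.104. Of all tested genes 46.7% had a log2 fold change above 0. The counts of interferon-stimulated genes were not repeated without cmGch1 KO replicates 2 and 3. Markers of macrophages lay higher as well: 7 of the 8 listed were tested, 6 of these had an unadjusted p under 0.05 in the direction of cmGch1 KO, and 0 were called. Their summed level was between 151 and 186 cpm in WT and between 183 and 222 cpm in cmGch1 KO, with none at 0. Whether macrophages had a part in the values of Eif2ak2 was not tested.

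Atf4, the main effector of the pathway, had nearly the same mean in both genotypes. It was between 54.5 and 83.1 cpm in WT (median 77.2) and between 64.5 and 82.5 cpm in cmGch1 KO (median 71.2). All 6 cmGch1 KO libraries lay within the WT range. The log2 fold change was -0.01 (SE 0.10, 95% interval -0.22 to 0.20), which bounds a rise of Atf4 RNA at 1.146-fold and a fall at 0.857-fold. Ddit3, which encodes CHOP, a factor of prolonged endoplasmic reticulum stress, was between 11.005 and 24.3 cpm in WT (median 15.7) and between 15.2 and 19.5 cpm in cmGch1 KO (median 16.0). Again the cmGch1 KO libraries lay within the WT range. Its log2 fold change was 0.02, with a wider 95% interval of -0.33 to 0.37.

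Atf5, a relative of ATF4 that is controlled by upstream open reading frames in a like manner and is linked to the mitochondrial unfolded protein response, was the member that rose. It was 72.8, 62.1, 64.6, 68.2, 62.3 and 57.9 cpm in WT replicates 1 to 6. It was 84.0, 119, 106, 85.6, 83.1 and 71.6 cpm in cmGch1 KO replicates 1 to 6. Thus 5 of 6 cmGch1 KO libraries lay above every WT library, and cmGch1 KO replicate 6 lay just under the highest WT library. The WT mean was 64.6 ± 5.23 cpm and the cmGch1 KO mean 91.5 ± 17.4 cpm (SD, n = 6 each). This was a log2 fold change of 0.50 (SE 0.11, 95% interval 0.26 to 0.74) or 1.42-fold. The adjusted p was 0.0438 by edgeR's quasi-likelihood test. The exact permutation test gave p = 0.00433, two-sided, and 0.156 after adjustment over all tested genes.

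The call of Atf5 lay near the threshold and rested in part on the 2 libraries with high Xist, in which its levels were the highest of all. The other 4 cmGch1 KO libraries were between 71.6 and 85.6 cpm (81.1 ± 6.41 cpm, SD, n = 4), still above the WT mean in each case. Without cmGch1 KO replicates 2 and 3 the log2 fold change of Atf5 was 0.33 with an adjusted p of 0.139, and 0 members were called. For that comparison of 4 with 6 libraries the exact permutation test of Atf5 gave p = 0.00952, two-sided, where the smallest p the design allows is 0.00476. Leaving out single libraries gave log2 fold changes of Atf5 between 0.41 and 0.56 and kept the call in 3 of 12 cases. The call held without WT replicate 1, cmGch1 KO replicate 1 or cmGch1 KO replicate 6, and the adjusted p was between 0.0642 and 0.132 without any other single library. Atf5 shares 82 bases of exon, 4.1% of its exonic length, with Il4i1 and with Nup62, which is not analysed here, on the opposite strand, and the strand setting of the counting is not given in the sources used here. Il4i1 itself had a mean of 2.97 cpm in WT hearts and of 2.98 cpm in cmGch1 KO hearts. Of the other members, Ddit3 shares 68 bases with Mars, which encodes methionyl-tRNA synthetase, and Eif2ak1 shares 487 bases with Aimp2, in both cases on the opposite strand. Ddit3 also shares 105 bases, 6.1% of its exonic length, with a second entry named Ddit3 on the same strand, which is not analysed here. Eif2ak3 shares 485 bases with Gm43292, also not analysed here, and Eif2ak2 shares 174 bases with Gm26637, both on the opposite strand. Some shorter overlaps are not named.

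**Figure D2:**
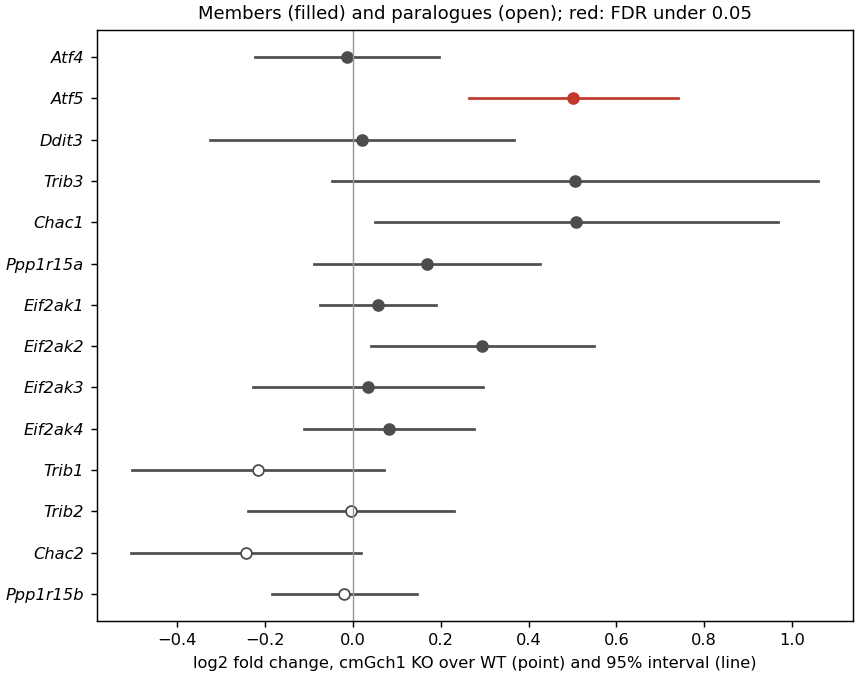
Log2 fold change of cmGch1 KO over WT (points, horizontal axis) with its 95% interval (lines) for the 10 members (filled) and 4 paralogues (open), from the fit across all tested genes. Atf5, in red, is the gene with an adjusted p under 0.05, and Trib3 and Chac1 have a like fold change with wider intervals.

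The feedback targets Trib3 and Chac1 had fold changes as large as that of Atf5 but were less abundant, at 1.39 and 2.19 cpm per kb in WT, and more variable. Trib3, a pseudokinase that binds ATF4 and restrains it, was between 2.15 and 4.09 cpm in WT (median 2.90) and between 2.04 and 5.997 cpm in cmGch1 KO (median 4.36). The cmGch1 KO libraries fell on both sides of the WT range, with 3 of 6 above every WT library and replicate 4 below every one. For Trib3 the log2 fold change was 0.51 (SE 0.26, 95% interval -0.05 to 1.06), with an unadjusted p of 0.0702 and an adjusted p of 0.5 by edgeR's quasi-likelihood test. Chac1, which degrades glutathione, was between 2.46 and 5.34 cpm in WT (median 3.13) and between 3.93 and 7.05 cpm in cmGch1 KO (median 4.57). All 6 cmGch1 KO libraries lay above the WT median and 2 above every WT library. The log2 fold change of Chac1 was 0.51 (SE 0.21, 95% interval 0.05 to 0.97), with an unadjusted p of 0.032 and an adjusted p of 0.358. Neither gene passed the threshold, and the upper ends of the intervals leave room for 2.09-fold (Trib3) and 1.96-fold (Chac1).

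Ppp1r15a encodes GADD34, the stress-induced subunit that brings protein phosphatase 1 to eIF2alpha. It was between 25.1 and 35.3 cpm in WT (median 27.5) and between 24.8 and 39.8 cpm in cmGch1 KO (median 32.3). The ranges overlapped over most of their width. Its log2 fold change was 0.17 (SE 0.12, 95% interval -0.09 to 0.43), with an adjusted p of 0.685. Its constitutive paralogue Ppp1r15b had a log2 fold change of -0.02 (SE 0.08). Among the other paralogues of members, Trib1 had -0.22 (SE 0.13) and Chac2, a slower glutathione-degrading enzyme, -0.24 (SE 0.12), and 0 of the 11 paralogues tested were called.

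A ratio of 2 genes within a library does not depend on how libraries are scaled. The 4 ratios given here were chosen after the values had been seen and are descriptions with no test. The log2 ratio of Atf5 to Atf4 counts averaged -0.16 ± 0.21 in WT hearts and 0.33 ± 0.29 in cmGch1 KO hearts (SD, n = 6 each), a difference of 0.49. WT libraries ranged from -0.40 to 0.19 and cmGch1 KO libraries, which overlapped them, from 0.02 to 0.73. Without the 2 libraries with high Xist the difference was 0.33. The log2 ratio of Chac1 to Chac2 differed by 0.76, that of Trib3 to Trib1 by 0.67 and that of Ppp1r15a to Ppp1r15b by 0.19, and the ranges of the genotypes overlapped in each.

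The machinery on which the kinases act was next examined. Of 14 genes for eIF2, its exchange factor eIF2B and the eIF2alpha phosphatase, 0 were called in either direction, and their median log2 fold change was 0.01. Eif2s1, the gene for eIF2alpha itself, averaged 53.5 ± 6.70 cpm in WT hearts and 55.2 ± 7.72 cpm in cmGch1 KO hearts (SD, n = 6 each). The largest difference in this list was that of Eif2s3x, the X-linked gene for eIF2gamma, with a log2 fold change of 0.45 and an adjusted p of 0.318. Its Y-linked copy Eif2s3y was at 0 in the 2 libraries with high Xist and between 50.8 and 62.7 cpm in the other 10. The sum of both genes was between 137 and 187 cpm in WT, between 176 and 193 cpm in the 4 cmGch1 KO libraries with Y-linked counts, and 219 and 213 cpm in cmGch1 KO replicates 2 and 3 (exact permutation test over all 12 libraries, two-sided, p = 0.0628). Without those 2 libraries Eif2s3x had a log2 fold change of 0.14 and an adjusted p of 0.97. In cmGch1 KO replicates 2 and 3 Eif2s3y had 0 counts beside 4735 and 4951 counts of Eif2s3x. Whether reads of Eif2s3y were counted for its near-identical copy Eif2s3x in the other libraries was not tested.

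**Figure D3:**
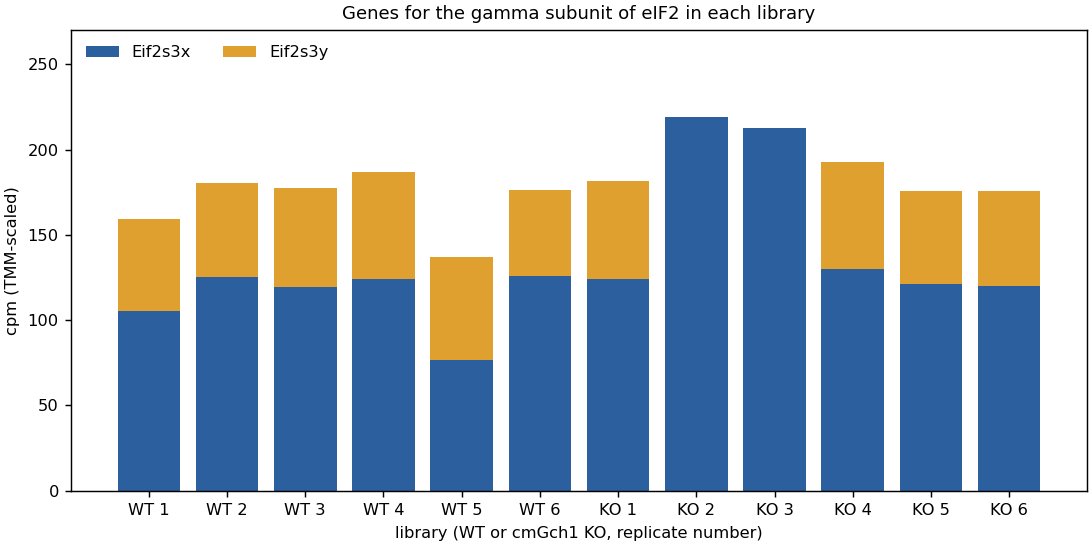
Level of Eif2s3x (blue) and Eif2s3y (orange), stacked, in each of the 12 libraries, in cpm scaled by the TMM factors from 0. Eif2s3y is at 0 in cmGch1 KO replicates 2 and 3, where Eif2s3x is at 219 and 213 cpm, against at most 130 cpm elsewhere.

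Of 10 regulators of the kinases, 0 were called and the median log2 fold change was -0.03. Dele1, which carries a mitochondrial stress signal to HRI, had the smallest p among them. It was between 141 and 175 cpm in WT and between 121 and 152 cpm in cmGch1 KO, with a log2 fold change of -0.21, an unadjusted p of 0.0096 and an adjusted p of 0.213. Oma1, the protease that cleaves DELE1, had a log2 fold change of -0.04 (SE 0.06). Hspa5, which encodes the chaperone BiP that holds PERK inactive, had 0.15 (SE 0.11). Among 16 partners and related stress transcription factors, 15 were tested, 3 had a log2 fold change above 0, 0 were called and the median was -0.15. Some of them, such as Atf3, with a log2 fold change of -0.27 (SE 0.27), and Cebpb, with -0.53 (SE 0.38), are rapid-response genes. In the list of immediate early genes 12 of the 14 tested had a log2 fold change below 0, with a median of -0.34. The 2 lists overlap, with the same lowest log2 fold change of -0.73, so their medians are not independent. Among the immediate early genes 1 was called, Myc, which was higher by 0.90 on the log2 scale (adjusted p = 0.0399). Myc was between 2.09 and 3.47 cpm in WT and between 3.56 and 7.24 cpm in cmGch1 KO. It thus passed the filter through the cmGch1 KO libraries, where it was high. With no filter its adjusted p was 0.03998. The call of Myc was kept in 4 of the 12 fits that leave out a single library, and its adjusted p was 0.0563 without the 2 libraries with high Xist.

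Targets of ATF4 were counted from a list of 60 genes, of which 47 were tested. The list was drawn up with results of these data known and is not independent evidence of a direction. Called higher were 3 of the 47 and called lower 1, where 0.677% of all tested genes were called higher. At an unadjusted p under 0.05 the counts were 12 higher and 3 lower, against 787 higher and 506 lower among the 11225 tested genes. The median log2 fold change of the 47 was 0.06. Mthfd2, a mitochondrial enzyme of one-carbon metabolism, was between 2.75 and 4.28 cpm in WT and between 6.87 and 16.0 cpm in cmGch1 KO, without overlap, and rose by 1.85 on the log2 scale (SE 0.20, adjusted p = 6.4e-04). Gdf15, a secreted stress hormone, was between 1.07 and 2.67 cpm in WT and between 5.48 and 11.2 cpm in cmGch1 KO, also without overlap, and rose by 1.94 (SE 0.25, adjusted p = 0.00149). Gdf15 was under 3 cpm in every WT library and so passed the filter through the cmGch1 KO libraries, where it was high. With no filter its adjusted p was 3.1e-04. Slc7a5, an importer of large neutral amino acids, rose by 0.78 (SE 0.14, adjusted p = 0.0117). Gpt2, the mitochondrial alanine aminotransferase, fell by 0.37 on the log2 scale (SE 0.06, adjusted p = 0.0114). Without the 2 libraries with high Xist the adjusted p was 0.00487 for Mthfd2 and 0.00781 for Gdf15, but 0.0885 for Slc7a5 and 0.101 for Gpt2.

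**Figure D4:**
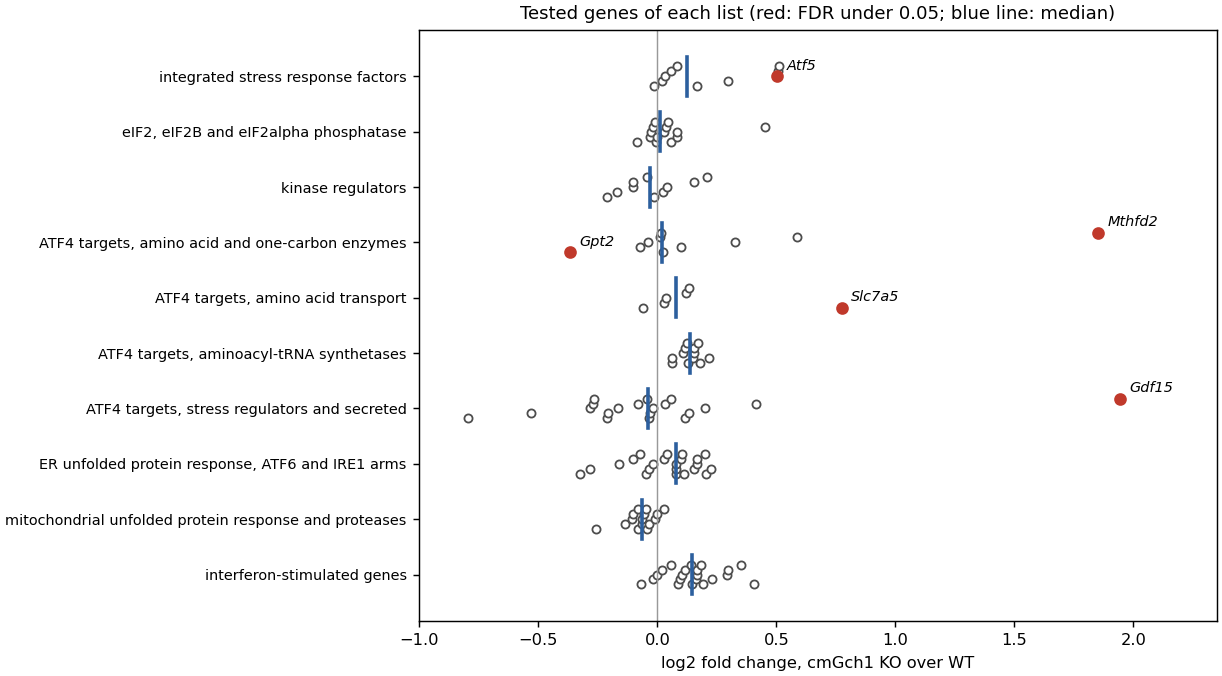
Log2 fold change of cmGch1 KO over WT (horizontal axis) of every tested gene of 10 lists (points), with the median of each list (blue line) and genes with an adjusted p under 0.05 in red and named. Mthfd2 (1.85) and Gdf15 (1.94) lie far to the right of all other genes plotted, while the medians of the lists lie between -0.06 and 0.15.

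The ATF4 targets were also counted by group. All 12 aminoacyl-tRNA synthetases, the enzymes that charge tRNAs, had a log2 fold change above 0, between 0.06 and 0.22 with a median of 0.14, and 5 had an unadjusted p under 0.05 while 0 were called. Of all tested genes 46.7% had a log2 fold change above 0. The counts of synthetases were not repeated without the 2 libraries with high Xist. Gars, the glycyl-tRNA synthetase, averaged 60.9 ± 3.16 cpm in WT hearts and 70.8 ± 5.30 cpm in cmGch1 KO hearts (SD, n = 6 each, adjusted p = 0.158). Of 17 enzymes of amino acid and one-carbon metabolism, 10 were tested, with a median of 0.02. Asns, asparagine synthetase, was among the 7 that did not pass the filter. It is named here after its values were seen: it was between 1.77 and 2.92 cpm in WT and between 2.54 and 5.96 cpm in cmGch1 KO, and in the fit with a filter of 0.5 cpm its log2 fold change was 0.94 with an adjusted p of 0.0294. This fit was not repeated without the 2 libraries with high Xist. Of 11 amino acid transporters 6 were tested, with a median of 0.08. Of 21 stress regulators and secreted factors 20 were tested, with a median of -0.04. Sesn2, a brake on amino acid signalling, had a log2 fold change of 0.41 and an adjusted p of 0.191.

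The 6 cmGch1 KO libraries did not order alike in all of these genes. cmGch1 KO replicates 2 and 3 held the highest levels of Atf5 (119 and 106 cpm), Slc7a5 (11.65 and 12.03 cpm) and Gars (74.8 and 76.2 cpm). cmGch1 KO replicate 6 held the lowest levels of the 6 for Atf5 (71.6 cpm), Mthfd2 (6.87 cpm), Slc7a5 (7.42 cpm), Asns (2.54 cpm) and Gars (62.3 cpm). For Gdf15, however, cmGch1 KO replicate 6 was the highest of the 6 (11.2 cpm), and for Chac1 it was the second highest (6.04 cpm). Atf4 was at 70.7 cpm in that library, close to the median of its group. These orders were picked out after the values were seen and describe 6 libraries.

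The other arms of the response to unfolded proteins were compared in the same fit. Of 22 genes of the ATF6 and IRE1 arms in the endoplasmic reticulum 0 were called, 14 had a log2 fold change above 0, and the median was 0.08. Ern1, which encodes IRE1alpha, averaged 18.8 ± 2.45 cpm in WT hearts and 14.96 ± 2.14 cpm in cmGch1 KO hearts (SD, n = 6 each), with an adjusted p of 0.224. Of 16 genes of the mitochondrial unfolded protein response and mitochondrial proteases, 15 were tested, 14 had a log2 fold change below 0, 0 were called and the median was -0.06. Hspd1, the mitochondrial chaperonin often used as a readout of that response, had a log2 fold change of -0.04 (SE 0.09), and Lonp1, a matrix protease, 0.03 (SE 0.08).

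The summed cardiomyocyte markers given above did not overlap between genotypes and were lower in cmGch1 KO, and 8 of the 10 had a log2 fold change below 0, with a median of -0.14. Markers of other cell types were summed over whole lists as well. The 8 fibroblast markers tested all had log2 fold changes above 0, with 0 called and sums between 827 and 1106 cpm in WT and between 939 and 1165 cpm in cmGch1 KO. Of 8 lymphocyte markers 1 was tested, Ptprc, which encodes CD45 and rose by 0.55 on the log2 scale (adjusted p = 0.0116, and 0.0636 without the 2 libraries with high Xist). The 8 lymphocyte markers summed to between 8.17 and 10.8 cpm in WT and between 11.2 and 14.8 cpm in cmGch1 KO. Of the 8 endothelial markers 0 were called. Of the 8 markers of pericytes and smooth muscle 6 had a log2 fold change below 0, and 1 was called, Acta2, which rose by 0.66 (adjusted p = 0.00672, and 0.039 without the 2 libraries with high Xist). Of the 5 atrial markers tested 2 had a log2 fold change below 0, of which 1 had an unadjusted p under 0.05, and 1 was called. This was Nppa, a natriuretic peptide gene also induced in stressed ventricle, which rose by 1.53 on the log2 scale (adjusted p = 0.024). The call of Nppa was kept in 6 of the 12 fits that leave out a single library, and its adjusted p was 0.157 without the 2 libraries with high Xist. Of the 5 erythroid markers tested 0 were called. No marker in these lists was at 0 in every library. Whether a change in cell types had a part in the values of Atf5 and of the ATF4 targets was not tested.

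The members also varied among libraries of the same genotype. After the mean of each genotype was removed, the leading axis over all tested genes took 37.9% of the variance. The correlation of a gene with this axis followed its exonic length, with a Spearman rho of 0.603 over 11195 genes that do not count as independent replicates. The median r was -0.76 in the shortest 10% of genes and 0.75 in the longest 10%. The 4 kinases, with exonic lengths of 5.11 to 7.46 kb, had Pearson r with the axis between 0.68 and 0.85 over 12 libraries. Of the shorter members, Atf4 (2.36 kb) had -0.59 and Atf5 (1.99 kb) -0.63, whereas Chac1, the shortest at 1.64 kb, had 0.57. Ddit3, Trib3 and Ppp1r15a had r between -0.36 and -0.22. The axis had an r of 0.48 with the mitochondrial percentage and 0.12 with the total counts. The 12 libraries share these properties, so the r values are descriptions.

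**Figure D5:**
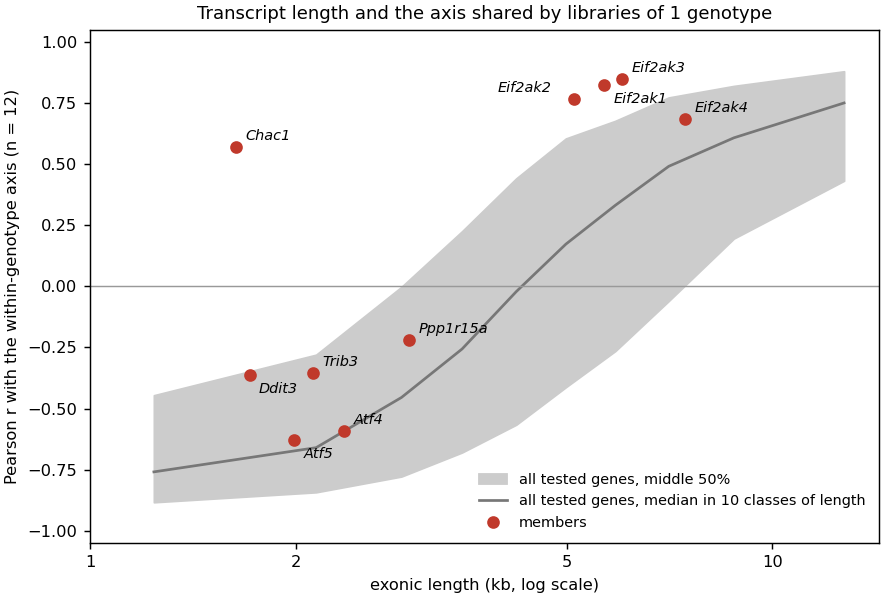
Pearson r of each member (red points) with the leading axis of variation within genotypes over 12 libraries (vertical axis) against exonic length in kb (horizontal axis, log scale), with the median and the middle 50% of all tested genes in 10 classes of length in grey. The 4 kinases lie at the upper right (0.68 to 0.85) and Atf4 and Atf5 at the lower left (-0.59 and -0.63), and Chac1 (0.57) lies above the grey band at its length.

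Pairs of members were compared in the same way, on the same deviations from the genotype means. The axis that follows exonic length is therefore part of these values. The kinases had r with it of 0.68 to 0.85, and Atf4 -0.59. How much of each pair value comes from that axis was not tested. Within genotypes the 6 pairs of kinases had Pearson r between 0.45 and 0.84 over 12 libraries, the highest for Eif2ak1 with Eif2ak2. Atf4 ran opposite to Eif2ak2 (r = -0.79) and Eif2ak1 (r = -0.71), and had r = 0.16 with Atf5, 0.43 with Ddit3, 0.30 with Trib3, 0.22 with Chac1 and 0.50 with Ppp1r15a. The other pairs of shorter members had r between -0.49 (Atf5 with Chac1) and 0.22 (Ddit3 with Trib3). Within a single genotype (n = 6 each) the sign could differ. Atf4 with Chac1 had r = 0.42 in WT and -0.30 in cmGch1 KO, and Atf5 with Ddit3 had 0.68 in WT and -0.58 in cmGch1 KO. Among all tested genes, those most like a member by this measure were Uba6 for Eif2ak3 (r = 0.99), Bcl9 for Eif2ak2 (r = 0.97), Ate1 for Eif2ak4 (r = 0.96) and Ppp2r5c for Eif2ak1 (r = 0.95). For the transcription factors they were Hand2os1 for Atf4 (r = 0.94), Slc16a13 for Atf5 (r = 0.93) and Aven for Ddit3 (r = 0.91), and for the feedback targets Tmem101 for Trib3 (r = 0.91), Dennd2a for Chac1 (r = 0.88) and Gm11451 for Ppp1r15a (r = 0.88). These names are a description over 12 libraries and were the best of 11225 genes compared.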

How the data were processed

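Left ventricular RNA from 6 WT and 6 cmGch1 KO mice was analysed, grouped by the labels. According to the methods of the study, libraries were stranded by dUTP and paired-end, and the authors generated counts with HISAT2, Picard and featureCounts (HISAT2, SAMtools and GRCm38 in the submitters' processing notes). The authors deposited raw counts per Ensembl gene and a second table of normalized log2 values, whose tool is not given in the sources used here. Of 26921 identifiers, 26582 (98.7%) matched GENCODE M21. Counts were fitted with edgeR 4.0.16 in R 4.3.3 (TMM, cpm over 3 in at least 6 libraries, quasi-likelihood test on genotype, Benjamini-Hochberg over all 11225 tested genes, threshold 0.05). Single values were tested by the exact permutation test over 924 splits, whose smallest p is 0.00216. Ratios used counts plus 0.5. Alternatives used limma 3.58.1, DESeq2 1.42.0 and sva 3.50.0. The members and gene lists were chosen with earlier results of these data known. Named were the members, the genes called in each list or those with the smallest p, Gch1 with the sex-linked genes, and the genes most like each member. Between libraries of 1 genotype, chi-square per degree of freedom was 13.4 to 85.2 over 30 pairs, so none was a copy of another.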

Additional observations from a re-analysis of the deposited data

Results flagged for a closer look

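Within each genotype, 22 sets of 6 values were examined for a single library that stood apart from the other 5, by Dixon's test at a critical value of 0.625, and 0 were found.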

How the results depend on the processing

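The log2 fold changes of the members and the counts of members, of ATF4 targets and of all genes called were recomputed under 10 other settings and with each of the 12 libraries left out in turn. The count of 1 member called higher became 0 with sex-linked expression as a covariate, 0 without the 2 libraries with high Xist, 0 with the deposited normalized values tested by limma and 2 with 1 surrogate variable (Atf5 and Eif2ak2), and was between 0 and 1 over the leave-one-out fits. Members called lower numbered 0 in every fit. The log2 fold change of Atf5 was between 0.33 and 0.59 over the other settings, with adjusted p-values between 0.00223 and 0.139. It was 0.34 (adjusted p = 0.128) with the sex-linked covariate and 0.45 (adjusted p = 0.0543) with the deposited values and limma. Among members not called, the sign of the log2 fold change turned in 6 of the 22 fits for Atf4, 5 for Ddit3 and 4 for Eif2ak3. Over all tested genes, 76 were called higher, and the count was 116 with scaling by library size alone, 218 with DESeq2, 41 with the sex-linked covariate, 20 without the libraries with high Xist, 305 with 1 surrogate variable and 45 to 116 leaving out single libraries. Called lower were 50, and the count was 155 with DESeq2, 24 with the sex-linked covariate, 18 without the libraries with high Xist, 331 with 1 surrogate variable and 30 to 97 leaving out single libraries. The surrogate variable had an r of 0.996 in size with the axis that follows transcript length. Library-size scaling also moved the share of higher calls from 60.3% to 76.3% and the median log2 fold change of all genes to 0.07, and that of the members to 0.20. ATF4 targets called higher numbered 3, 5 with DESeq2, 6 with 1 surrogate variable, 2 without the libraries with high Xist and 3 in every leave-one-out fit, and the 1 called lower became 0 with the sex-linked covariate and 0 without the libraries with high Xist. The cause was not tested for any of these.

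The labels do not say what the replicate numbers share. Correlations of deviations between same-numbered libraries were 0.68, 0.40 and 0.51 for numbers 1, 5 and 6 and between -0.13 and -0.08 for numbers 2, 3 and 4, so the numbers were not treated as pairs. With the replicate block 76 genes were called lower and 188 in all, against 126 without it. Atf5 had a log2 fold change of 0.49 and an adjusted p of 0.0425 with the block. Of the 12 libraries, 5 correlated best with the library of their own number in the other genotype.

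The 6 libraries a genotype gave 95% intervals as wide as -0.05 to 1.06 for Trib3, so that changes of low members were not resolved at this depth and spread.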

Other observations

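The ratio of Atf5 to Atf4 was also recomputed leaving out each library in turn, an alternative added after seeing the data. The difference between genotypes was then between 0.41 and 0.56 on the log2 scale.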
